A study of Mus musculus with 13 samples.

Results

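The Mef2 family (myocyte enhancer factor 2) comprises 4 genes in the mouse, Mef2a, Mef2b, Mef2c and Mef2d, and these 4 symbols were looked up among the 24411 genes of a bulk RNA-seq table and among the 14601 and 14164 genes of 2 single-cell RNA-seq tables. All 4 had a row in the bulk table. Mef2a, Mef2c and Mef2d had a row in both single-cell tables, and Mef2b had none in either. The samples came from skeletal muscle of wild-type C57BL/6 mice aged 2 months. SMMC (smooth-muscle and mesenchymal-like cells) were sorted as negative for CD31, CD45, Sca1 and Vcam1 and positive for ITGA7. They were profiled as fresh SMMC (3 libraries), as proliferating SMMC harvested after 3 days of culture (3 libraries) and as differentiating SMMC that had been cultured and left to differentiate (3 libraries). MuSC (muscle stem cells), sorted fresh with the same antibodies but as Vcam1-positive, gave 2 libraries. The single-cell samples were 2 droplet libraries of all mononuclear cells of hindlimb muscle, with neither culture nor injury.

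MEF2 proteins bind A/T-rich sites in DNA through an N-terminal MADS domain followed by a MEF2-specific domain. In skeletal muscle they act together with the MyoD family (Myf5, Myod1, Myog and Myf6) on genes of the contractile apparatus. Class IIa histone deacetylases hold MEF2 in a repressive state, and calcium signals through calcineurin and calmodulin-dependent kinases, together with p38 kinases, raise its activity. Outside skeletal muscle the family also acts in heart, smooth muscle, endothelium, neurons and lymphocytes.

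On GRCm38, Mef2a lies on the minus strand at chr7:67231163-67372858, Mef2b on the plus strand at chr8:70139711-70167488, Mef2c on the plus strand at chr13:83504034-83667080 and Mef2d on the plus strand at chr3:88142372-88172086, in the GENCODE annotation. The first coding exon, 54 bases that encode the start codon and the beginning of the MADS domain, is shown to let the relatedness of the members be seen. Capitals mark the bases that differ from Mef2c.
Mef2c: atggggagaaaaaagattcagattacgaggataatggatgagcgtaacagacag
Mef2a: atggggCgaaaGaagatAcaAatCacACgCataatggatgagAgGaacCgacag
Mef2d: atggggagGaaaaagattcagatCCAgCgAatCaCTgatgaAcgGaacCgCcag
Mef2b: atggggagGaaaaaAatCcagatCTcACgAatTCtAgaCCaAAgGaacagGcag
These exons sit at chr13:83575677-83575730 (Mef2c), chr7:67316792-67316845 (Mef2a), chr3:88155809-88155862 (Mef2d) and chr8:70164251-70164304 (Mef2b). Mef2a kept 43 of the 54 bases of Mef2c (79.6%), Mef2d 41 (75.9%) and Mef2b 37 (68.5%). Over whole annotated transcripts the longest run of bases identical between a pair of members was between 12 bases (Mef2a and Mef2b) and 31 bases (Mef2b and Mef2c). Mef2b overlaps the gene Borcs8 on the same strand, so reads could have been split between them in counting and its values are uncertain.

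Levels in bulk are given as FPKM, which scales a gene's fragments by its length and by the library's total, so levels can be set beside each other between genes. Depth is unknown, because FPKM keeps no read count, and the labels do not say that libraries of a group came from separate animals or cultures. The p-values therefore measure only the spread between these libraries, which may be technical. Markers listed for 13 cell classes gave a mixed picture of the fresh SMMC: summed FPKM of 6 pericyte and smooth muscle markers ran from 1616 to 3500 in fresh SMMC and from 38.9 to 68.1 in MuSC, while 6 tenocyte markers summed to 8823 to 18066 in fresh SMMC and to 10.7 to 19.8 in MuSC. Muscle stem cell markers summed to 779 to 1078 FPKM in fresh SMMC and to 27616 to 39986 in MuSC. Total FPKM ran from 464441 to 577580 per library, and the ribosomal RNA gene Rn45s took 4.11% to 10.2% of it in SMMC and 0.0244% to 0.0253% in MuSC. In bulk samples, fewer cells of a type and less RNA per cell cannot be told apart.

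Mef2c, the member required for heart development and a marker of muscle differentiation, differed most between the groups. Its level was 15.1, 27.0 and 37.7 FPKM in the 3 fresh SMMC libraries, 7.36, 4.42 and 14.4 FPKM in proliferating SMMC, 311, 265 and 315 FPKM in differentiating SMMC, and 0.321 and 0.276 FPKM in the 2 MuSC libraries. No groups overlapped: differentiating SMMC stood above all other libraries and MuSC below all of them, while the highest proliferating library lay just under the lowest fresh one. Mef2a, a broadly expressed member, was at 15.5, 18.8 and 24.0 FPKM in fresh SMMC, 9.83, 14.2 and 20.1 FPKM in proliferating SMMC, 17.2, 30.3 and 45.3 FPKM in differentiating SMMC, and 7.46 and 6.45 FPKM in MuSC. The 3 SMMC groups overlapped one another for Mef2a, and both MuSC libraries lay below all of them.

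Mef2d, another broadly expressed member, was at 1.63, 1.69 and 1.29 FPKM in fresh SMMC, 0.979, 1.62 and 1.86 FPKM in proliferating SMMC, 4.56, 3.61 and 5.12 FPKM in differentiating SMMC, and 1.97 and 1.5 FPKM in MuSC. Only the differentiating libraries stood apart from the rest for Mef2d. Mef2b, which in mammals is best known from B lymphocytes, was listed at 0.226, 0.0203 and 0 FPKM in fresh SMMC, 0, 0 and 0.0912 FPKM in proliferating SMMC, 0.0450, 0 and 0.0264 FPKM in differentiating SMMC, and 0.00367 and 0.0309 FPKM in MuSC. It did not pass the filter of at least 1 FPKM in at least 2 libraries and was not tested.

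**Figure D1:**
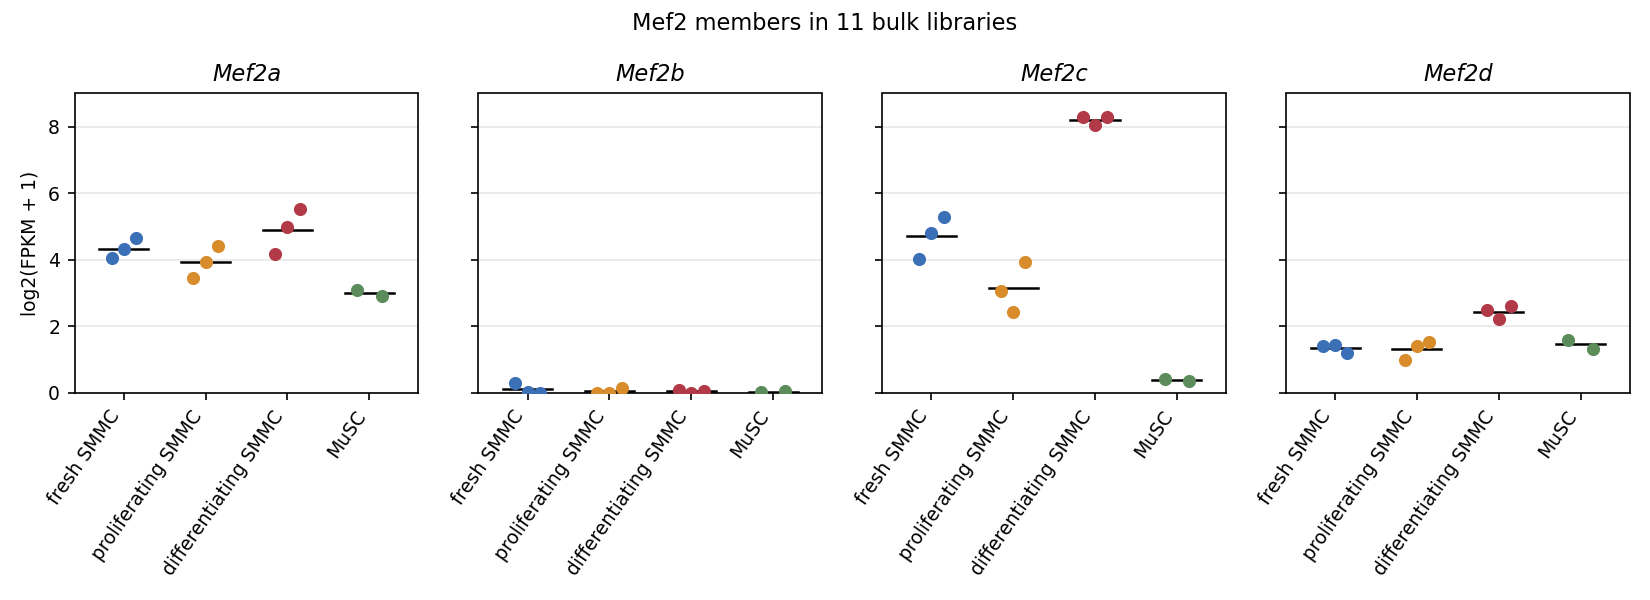
Level of each Mef2 member on the log2(FPKM + 1) scale in the 11 bulk libraries, 1 point per library and a bar at the group mean. Mef2c separates all 4 groups, Mef2d separates the differentiating SMMC, and Mef2b lies at or near 0 throughout.

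The members contributed in different proportions in each group. The summed FPKM of the 4 members was 32.5 to 63.0 in fresh SMMC, 18.2 to 36.5 in proliferating SMMC, 299 to 366 in differentiating SMMC and 8.26 to 9.76 in MuSC. Mef2c supplied 46.5% to 59.9% of that sum in fresh SMMC, 21.9% to 40.5% in proliferating SMMC, 86.2% to 93.5% in differentiating SMMC and 3.28% to 3.34% in MuSC. Mef2a was the main member in MuSC, at 76.5% to 78.1%, with Mef2d at 18.1% to 20.2%. Mef2d held 1.21% to 1.4% in differentiating SMMC, although its own level was highest there.

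**Figure D2:**
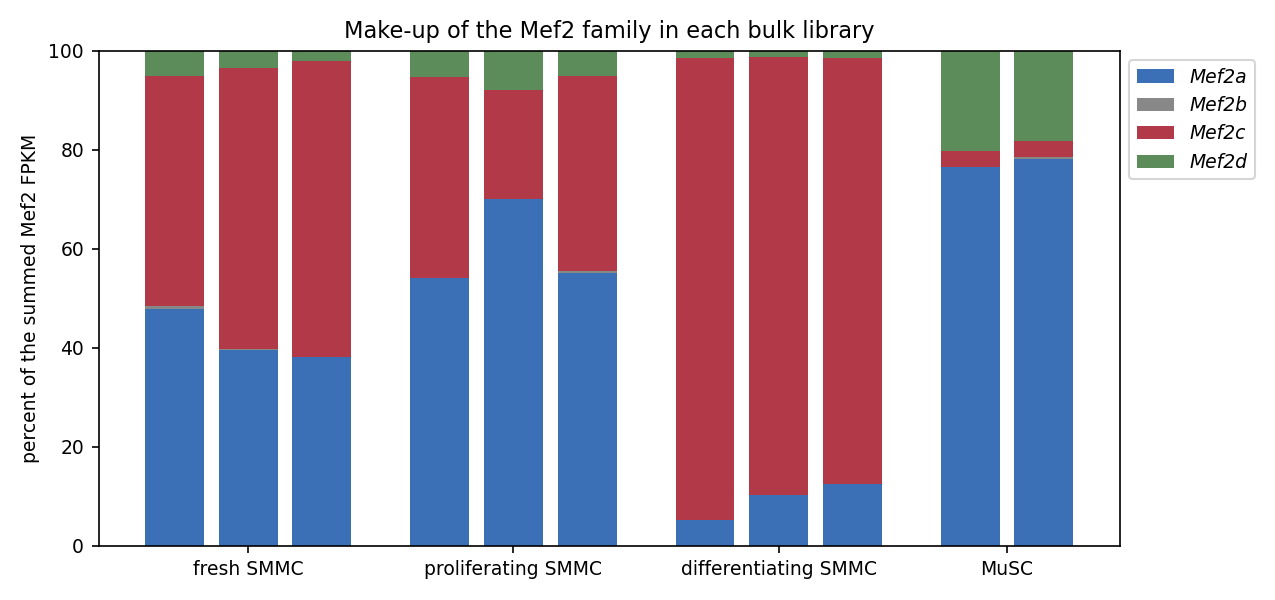
Share of each member in the summed Mef2 FPKM, 1 bar per bulk library, in percent. Mef2c makes up 86.2% to 93.5% of the sum in differentiating SMMC and Mef2a 76.5% to 78.1% in MuSC.

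Differences between groups were tested with limma on log2(FPKM + 1) over 13233 genes, with Benjamini-Hochberg adjustment over all of them and a threshold of 0.05. Fold changes on this scale understate the change of low genes such as Mef2d and, in MuSC, Mef2c. Of the 3 main comparisons, 2 use the fresh libraries and 2 the proliferating ones, so their values are given side by side and are not independent.

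Fresh SMMC had more Mef2c and Mef2a than MuSC, and Mef2d was not called. Mef2c averaged 26.6 ± 11.3 FPKM in fresh SMMC (SD, n = 3) and 0.298 ± 0.0314 FPKM in MuSC (SD, n = 2). That is a log2 fold change of 4.32 (SE 0.407, limma adjusted p = 2.38e-06). Mef2a averaged 19.4 ± 4.27 FPKM in fresh SMMC and 6.96 ± 0.713 FPKM in MuSC, a log2 fold change of 1.34 (SE 0.371, limma adjusted p = 0.00755), or 2.54-fold. Mef2d differed by -0.10 on the log2 scale, with a 95% interval of -0.62 to 0.41 (limma adjusted p = 0.728). Of all genes tested, 59.7% were called in this comparison, 41.7% higher and 18.0% lower, so 2 called members of 3 tested is close to that background.

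The size of the Mef2a difference depended on how the libraries were scaled. The median log2 fold change of all genes tested was 0.45, and 69.8% of the called genes were higher in fresh SMMC; after TMM rescaling the median was 0.05 and 51.7% were higher, and after quantile normalization -0.04 and 48.1%. Mef2a then differed by 0.81 with TMM (limma adjusted p = 0.0546) and by 0.87 with quantile normalization (limma adjusted p = 0.0427). Its call also ended without MuSC replicate 2, where the log2 fold change was 1.25 (limma adjusted p = 0.0554). Mef2d was called lower in fresh SMMC with quantile normalization only, at -0.92 (limma adjusted p = 0.00281). Mef2c kept a log2 fold change of at least 4.03 under every alternative run.

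Markers of other cell types moved with this comparison. The 6 endothelial markers summed to 107 to 192 FPKM in fresh SMMC and to 4.40 to 4.70 FPKM in MuSC, and the fibro-adipogenic progenitor markers to 2775 to 4742 FPKM in fresh SMMC and 404 to 605 FPKM in MuSC. Red blood cell markers summed to 107 to 494 FPKM in fresh SMMC and to 0.0933 to 13.1 FPKM in MuSC. Their part in the Mef2 differences was not tested. B cell markers, which matter because B cell-like cells had the most Mef2c among single cells, summed to 0.257 to 0.660 FPKM in fresh SMMC and to 1.15 to 2.04 FPKM in MuSC.

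Culture for 3 days went with less Mef2c and with no call for the other members. Mef2c averaged 8.72 ± 5.12 FPKM in proliferating SMMC and 26.6 ± 11.3 FPKM in fresh SMMC (SD, n = 3 each). It fell by 1.55 on the log2 scale (SE 0.364, limma adjusted p = 0.00224), which is 2.93-fold lower. Mef2a was at 14.7 ± 5.17 FPKM in proliferating SMMC and 19.4 ± 4.27 FPKM in fresh SMMC, a log2 difference of -0.41 with a 95% interval of -1.13 to 0.31 (limma adjusted p = 0.285); leaving out 1 library moved it between -0.65 (without proliferating replicate 3) and -0.17 (without proliferating replicate 1). Mef2d was at 1.49 ± 0.454 FPKM in proliferating SMMC and 1.54 ± 0.215 FPKM in fresh SMMC, a log2 difference of -0.05 with an interval of -0.50 to 0.41 (limma adjusted p = 0.86), and quantile normalization turned it to 0.48 (limma adjusted p = 0.0398). The share of all genes called was 68.5% (33.1% higher, 35.4% lower), and 1 of the 3 tested members was called. Pericyte and smooth muscle markers, whose class had much Mef2c among single cells, summed to 558 to 783 FPKM in proliferating SMMC and 1616 to 3500 FPKM in fresh SMMC, with 3 or 4 of the 6 markers at 1 FPKM or more in proliferating libraries and all 6 in fresh ones. Of these, Rgs5 averaged 3.24 FPKM in proliferating SMMC and 1170 FPKM in fresh SMMC, and Kcnj8 0.158 FPKM in proliferating SMMC and 285 FPKM in fresh SMMC. The other markers of that list held nearly all of the 558 to 783 FPKM in proliferating SMMC, so this sum says little about Rgs5 and Kcnj8. The part of this class in the fall of Mef2c was not tested. Tenocyte markers summed to 4.04 to 14.2 FPKM in proliferating SMMC and 8823 to 18066 FPKM in fresh SMMC, and endothelial markers to 0.838 to 1.00 FPKM in proliferating SMMC and 107 to 192 FPKM in fresh SMMC; their part in the fall of Mef2c was not tested.

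Differentiating SMMC had far more Mef2c than proliferating SMMC, and all 3 tested members were called higher. Mef2c averaged 297 ± 28.1 FPKM in differentiating SMMC and 8.72 ± 5.12 FPKM in proliferating SMMC (SD, n = 3 each), a log2 fold change of 5.07 (SE 0.364, limma adjusted p = 1.14e-06), or 33.5-fold. Mef2d averaged 4.43 ± 0.765 FPKM in differentiating SMMC and 1.49 ± 0.454 FPKM in proliferating SMMC, a log2 fold change of 1.14 (SE 0.211, limma adjusted p = 0.00104). Mef2a averaged 30.9 ± 14.1 FPKM in differentiating SMMC and 14.7 ± 5.17 FPKM in proliferating SMMC, a log2 fold change of 0.97 (SE 0.332, limma adjusted p = 0.0335). The share of all genes called was 40.5%, with 20.9% higher and 19.6% lower.

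The Mef2a call in this comparison was not stable, and its groups overlapped. It ended when the fit held only the 2 groups compared (limma adjusted p = 0.118), with no filter on low values (0.0875), and without proliferating replicate 1 (0.118), proliferating replicate 2 (0.0773), differentiating replicate 2 (0.0786) or differentiating replicate 3 (0.135). Skeletal muscle fibre markers summed to 13110 to 16696 FPKM in differentiating SMMC and to 612 to 1585 FPKM in proliferating SMMC. Proliferation markers summed to 40.3 to 83.4 FPKM in differentiating SMMC and to 436 to 461 FPKM in proliferating SMMC. Their part in the Mef2 differences was not tested.

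**Figure D3:**
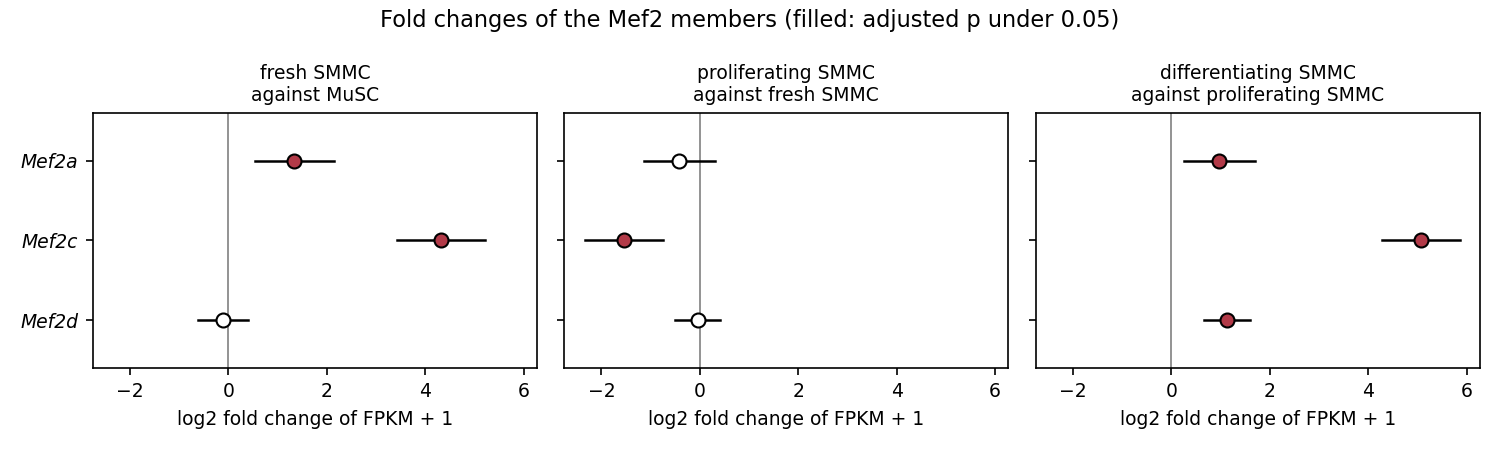
Log2 fold change of FPKM + 1 for the 3 members tested, with 95% intervals, in the 3 main comparisons; filled points have an adjusted p under 0.05. Mef2c stands at 4.32 in fresh SMMC against MuSC, at -1.55 in proliferating against fresh SMMC and at 5.07 in differentiating against proliferating SMMC.

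The order of the group means differed by member. For Mef2c it was differentiating SMMC, fresh SMMC, proliferating SMMC and MuSC from high to low, and each neighbouring pair differed. Differentiating against fresh SMMC gave a log2 fold change of 3.52 (limma adjusted p = 3.99e-06; 68.0% of all genes called) and proliferating SMMC against MuSC 2.77 (limma adjusted p = 5.5e-05; 68.3% of all genes called). For Mef2a the order was the same, but neither differentiating against fresh SMMC (log2 fold change 0.56, limma adjusted p = 0.151) nor proliferating against fresh SMMC passed the test. Without differentiating replicate 1, Mef2a in differentiating against fresh SMMC was called at 0.92 (limma adjusted p = 0.0216), and without differentiating replicate 3 it was 0.24 (limma adjusted p = 0.529). Proliferating SMMC against MuSC passed for Mef2a (0.93, limma adjusted p = 0.0405), but with TMM it was 0.29 (limma adjusted p = 0.466), and without proliferating replicate 2 or 3 or without either MuSC replicate it was not called. Mef2d was above MuSC in differentiating SMMC (0.98, limma adjusted p = 0.00237; 71.1% of all genes called), though not with TMM (0.45, limma adjusted p = 0.0883). Between MuSC, fresh SMMC and proliferating SMMC no Mef2d difference passed the test as scaled by the authors, but each pair was called under another scaling, proliferating SMMC against MuSC with TMM (-0.62, limma adjusted p = 0.0247).

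Genes whose pattern over the 11 libraries was most like that of each member were ranked by Pearson's r on log2(FPKM + 1) among 7689 genes. For Mef2c these were Tspan13 (r = 0.994), Mapre3 (0.989), Gprc5c (0.988), Gamt (0.985) and Scp2 (0.985). Tspan13 averaged 6.71 FPKM in fresh, 2.97 in proliferating and 61.6 in differentiating SMMC, and 0.0732 FPKM in MuSC, the same order of groups as Mef2c. For Mef2d they were Sh3bgr (0.984), Acsl3 (0.980), Arfgap3 (0.980), Exoc4 (0.969) and Ckmt2, the mitochondrial creatine kinase of muscle (0.965). For Mef2a the likeness was weaker, with Snx14 (0.921), Adal (0.918), Syne1 (0.911), Armcx1 (0.909) and Rom1 (0.909). Between the members r was 0.869 for Mef2a with Mef2c, 0.758 for Mef2c with Mef2d and 0.611 for Mef2a with Mef2d. These values describe 11 libraries of 4 groups that share their group differences.

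The repressors that bind MEF2 moved in different directions between fresh SMMC and MuSC. Of 6 class IIa HDAC and repressor genes, 3 were higher and 1 lower in fresh SMMC, where 41.7% of all genes were higher and 18.0% lower, with a list median log2 fold change of 0.89 beside 0.45 for all genes; with TMM or quantile normalization 2 were lower. Hdac7 was at 16.3 ± 4.93 FPKM in fresh SMMC and 1.19 ± 0.166 FPKM in MuSC, a log2 fold change of 2.94 (limma adjusted p = 1.75e-06), and Hdac5 at 28.8 ± 7.91 FPKM in fresh SMMC and 3.45 ± 0.215 FPKM in MuSC, a log2 fold change of 2.71 (limma adjusted p = 3.49e-05). Hdac4 went the other way, with 10.5 ± 0.911 FPKM in fresh SMMC and 71.7 ± 9.23 FPKM in MuSC (-2.65, limma adjusted p = 1.74e-05). Hdac9 was at 2.29, 1.27 and 2.33 FPKM in fresh SMMC and was listed at 0 in both MuSC libraries. In proliferating against fresh SMMC 5 of the 6 fell and none rose (35.4% and 33.1% of all genes; list median -1.05 beside -0.06), among them Hdac4, at 2.6 ± 1.49 FPKM in proliferating SMMC and 10.5 ± 0.911 FPKM in fresh SMMC (limma adjusted p = 1.33e-04). Hipk2, a kinase that acts as a MEF2 corepressor, also fell (-0.85, limma adjusted p = 0.00714). In differentiating against proliferating SMMC Hdac9 rose (1.18, limma adjusted p = 6.23e-04), Hdac7 fell (-1.32, limma adjusted p = 8.35e-04) and 4 were not called (list median -0.09 beside 0). Of all genes, 20.9% rose and 19.6% fell in that comparison.

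Of the 19 calcineurin and kinase genes, which relay calcium and stress signals to MEF2, 17 passed the filter. In fresh SMMC against MuSC 10 of them were higher and 1 lower (41.7% and 18.0% of all genes, list median 0.80 beside 0.45, 3 lower with TMM). Prkd2 reached the filter in fresh SMMC only, and without it 9 of 16 were higher and 1 lower (list median 1.05). The higher genes were led by Camk1, a calmodulin-dependent kinase, at 89.6 ± 15.9 FPKM in fresh SMMC and 5.02 ± 0.349 FPKM in MuSC (3.90, limma adjusted p = 4.49e-08). The p38 kinases Mapk11 (2.18, limma adjusted p = 2.81e-05) and Mapk12 (2.40, limma adjusted p = 4.67e-05) and the calmodulin-dependent kinase Camk2g (2.11, limma adjusted p = 6.19e-06) were higher too. In proliferating against fresh SMMC 11 fell and none rose (35.4% and 33.1% of all genes, list median -0.85 beside -0.06). Without Prkd2 10 of 16 fell (list median -0.86). Rcan1, an inhibitor of calcineurin and a calcineurin-responsive gene, fell to 1.73 ± 0.422 FPKM in proliferating SMMC, against 63.7 ± 1.67 FPKM in fresh SMMC (-4.58, limma adjusted p = 1.93e-08); Camk1, Camk2d and Prkd2 fell by 1.08, 1.08 and 0.85 on the log2 scale, but Prkd2 reached the filter in fresh SMMC only and so had to differ. In differentiating against proliferating SMMC 7 rose and none fell (20.9% and 19.6% of all genes, list median 0.24 beside 0). Camk2a was at 33.9 ± 10.5 FPKM in differentiating SMMC and 0.696 ± 0.339 FPKM in proliferating SMMC (4.33, limma adjusted p = 7.68e-07). Camk2b (3.59) and Akap6, a scaffold of muscle cells (2.63), rose with it.

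Among 17 coactivators and partners the MyoD family held the widest values. In fresh SMMC against MuSC 6 were higher and 4 lower (41.7% and 18.0% of all genes; list median 0.15 beside 0.45; 3 higher with quantile normalization). Myf5 was at 6.07 ± 2.81 FPKM in fresh SMMC and 1943 ± 953 FPKM in MuSC (-8.08, limma adjusted p = 6.52e-07), and Myod1 at 72.3 ± 24.1 FPKM in fresh SMMC and 314 ± 81.7 FPKM in MuSC (-2.14, limma adjusted p = 6.18e-05). The E protein Tcf3, the usual dimer partner of Myod1 (3.07), and Myocd, the smooth muscle coactivator myocardin (2.69), were higher in fresh SMMC. Myocd reached the filter in fresh SMMC only and so had to differ. Without it 5 were higher and 4 lower in fresh SMMC against MuSC (list median 0.11). In proliferating against fresh SMMC 8 rose and 6 fell (33.1% and 35.4% of all genes, list median 0.22 beside -0.06). Without Myocd, which had to fall, 8 rose and 5 fell (list median 0.51). Myod1 rose to 1069 ± 45.8 FPKM in proliferating SMMC, against 72.3 ± 24.1 FPKM in fresh SMMC (3.93, limma adjusted p = 1.17e-07), and Tcf3 rose by 2.52, while the acetyltransferase Crebbp fell by 2.25 and the coactivator Maml1 by 1.87 on the log2 scale. In differentiating against proliferating SMMC 4 rose and 5 fell (20.9% and 19.6% of all genes, list median -0.25 beside 0). Myf6 was at 18.6 ± 5.97 FPKM in differentiating SMMC and 0.871 ± 0.279 FPKM in proliferating SMMC (3.35, limma adjusted p = 1.11e-06) and Tead4 rose by 1.77, whereas Tcf3 fell by 1.66 and Myod1 by 1.4.

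Muscle-specific exons of Mef2 transcripts are regulated by splicing factors and their kinases, of which 8 genes were examined, those of the Rbfox and Mbnl families with Srpk3, Celf1 and Ptbp1; the gene-level FPKM do not resolve the exons themselves. In fresh SMMC against MuSC 3 were higher and 3 lower (41.7% and 18.0% of all genes; list median 0.13 beside 0.45). Mbnl1 was at 16.3 ± 2.58 FPKM in fresh SMMC and 355 ± 137 FPKM in MuSC (-4.31, limma adjusted p = 6.68e-08), and Srpk3 was higher in fresh SMMC (1.92, limma adjusted p = 0.00177). The count of 3 higher dropped to 1 with TMM and also without fresh replicate 2 or without MuSC replicate 2. In proliferating against fresh SMMC 4 rose and 2 fell (33.1% and 35.4% of all genes; list median 0.57 beside -0.06), with Mbnl3 up by 2.49 and Mbnl2 down to 73.2 ± 6.30 FPKM in proliferating SMMC, against 211 ± 9.97 FPKM in fresh SMMC (limma adjusted p = 7.97e-06). In differentiating against proliferating SMMC 2 rose and 3 fell (20.9% and 19.6% of all genes, list median 0.06 beside 0). Rbfox1 was at 10.3 ± 1.45 FPKM in differentiating SMMC and 1.01 ± 0.187 FPKM in proliferating SMMC (2.49, limma adjusted p = 1.43e-06), Srpk3 rose by 3.15, and Ptbp1, a repressor of muscle exons, fell by 1.72 (limma adjusted p = 3.15e-05).

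All 20 genes listed as reported MEF2 targets in skeletal muscle rose in differentiating against proliferating SMMC, with a list median log2 fold change of 3.31 beside 0 for all genes, of which 20.9% rose. Of the 20, 3 (Xirp2, Abra and Myl2) reached the filter in differentiating libraries only and so had to differ; the other 17 had a median of 3.37. Ckm, the muscle creatine kinase, was at 548 ± 199 FPKM in differentiating SMMC and 4.09 ± 2.79 FPKM in proliferating SMMC, a log2 fold change of 6.86 (limma adjusted p = 3.25e-07). Casq1, the calcium store protein of fast fibres, was at 619 ± 117 FPKM in differentiating SMMC and 7.19 ± 6.28 FPKM in proliferating SMMC (6.52, limma adjusted p = 1.11e-06), and Mb, myoglobin, rose by 5.47 (limma adjusted p = 1.65e-07). In proliferating against fresh SMMC 13 of the 20 rose and 3 fell (33.1% and 35.4% of all genes; list median 1.19 beside -0.06), while Mef2c itself fell. Tnni1, the slow troponin I, was at 376 ± 163 FPKM in proliferating SMMC and 3.78 ± 1.16 FPKM in fresh SMMC (6.23, limma adjusted p = 6.61e-09), Smyd1, a muscle methyltransferase, rose by 4.89, and Tmem8c (Mymk), the fusion protein myomaker, by 3.44. In fresh SMMC against MuSC 8 were higher and 1 lower (41.7% and 18.0% of all genes; list median 0.60 beside 0.45), with Slc2a4, the insulin-responsive glucose transporter, at 4.26, 10.3 and 21.3 FPKM in fresh SMMC and at 0.0333 and 0.00991 FPKM in MuSC (3.43, limma adjusted p = 4.23e-05). The list was drawn up with earlier results of these data known, and its direction is not independent evidence.

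A further list held 10 targets reported outside skeletal muscle. Of 9 tested, 7 were higher and 2 lower in fresh SMMC against MuSC (41.7% and 18.0% of all genes; list median 2.69 beside 0.45), and 8 fell and none rose in proliferating against fresh SMMC (35.4% and 33.1% of all genes; list median -3.37 beside -0.06). Myocd and Dll4 reached the filter in fresh SMMC only and so had to differ in both comparisons. Without them 5 of 7 were higher and 2 lower in fresh SMMC against MuSC (list median 3.41), and 6 of 7 fell in proliferating against fresh SMMC (list median -4.58). Jun, an immediate early transcription factor, was at 167 ± 14.8 FPKM in proliferating SMMC and 1740 ± 226 FPKM in fresh SMMC (-3.37, limma adjusted p = 4.52e-07). Gadd45b, a stress response gene, was at 19.1 ± 6.92 FPKM in proliferating SMMC and 714 ± 98.1 FPKM in fresh SMMC (-5.20, limma adjusted p = 1.57e-08), and in MuSC at 35.9 ± 5.53 FPKM. In differentiating against proliferating SMMC 3 rose, Rcan1, Klf4 and Cd79a, and none fell (20.9% and 19.6% of all genes, list median 0.66 beside 0). Without proliferating replicate 2 or 3 only 1 was called. The 2 lower genes in fresh SMMC against MuSC, Klf4 and Cd79a, were not both called when either MuSC replicate or fresh replicate 2 or 3 was left out. Cd79a lay near the floor. The 5 B cell markers, of which it is one, together summed to 0.487 to 2.23 FPKM in differentiating SMMC and 0 to 0.189 in proliferating SMMC. They summed to 0.257 to 0.660 FPKM in fresh SMMC and 1.15 to 2.04 in MuSC. Tcf21 was listed at 0 in all 11 libraries.

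**Figure D4:**
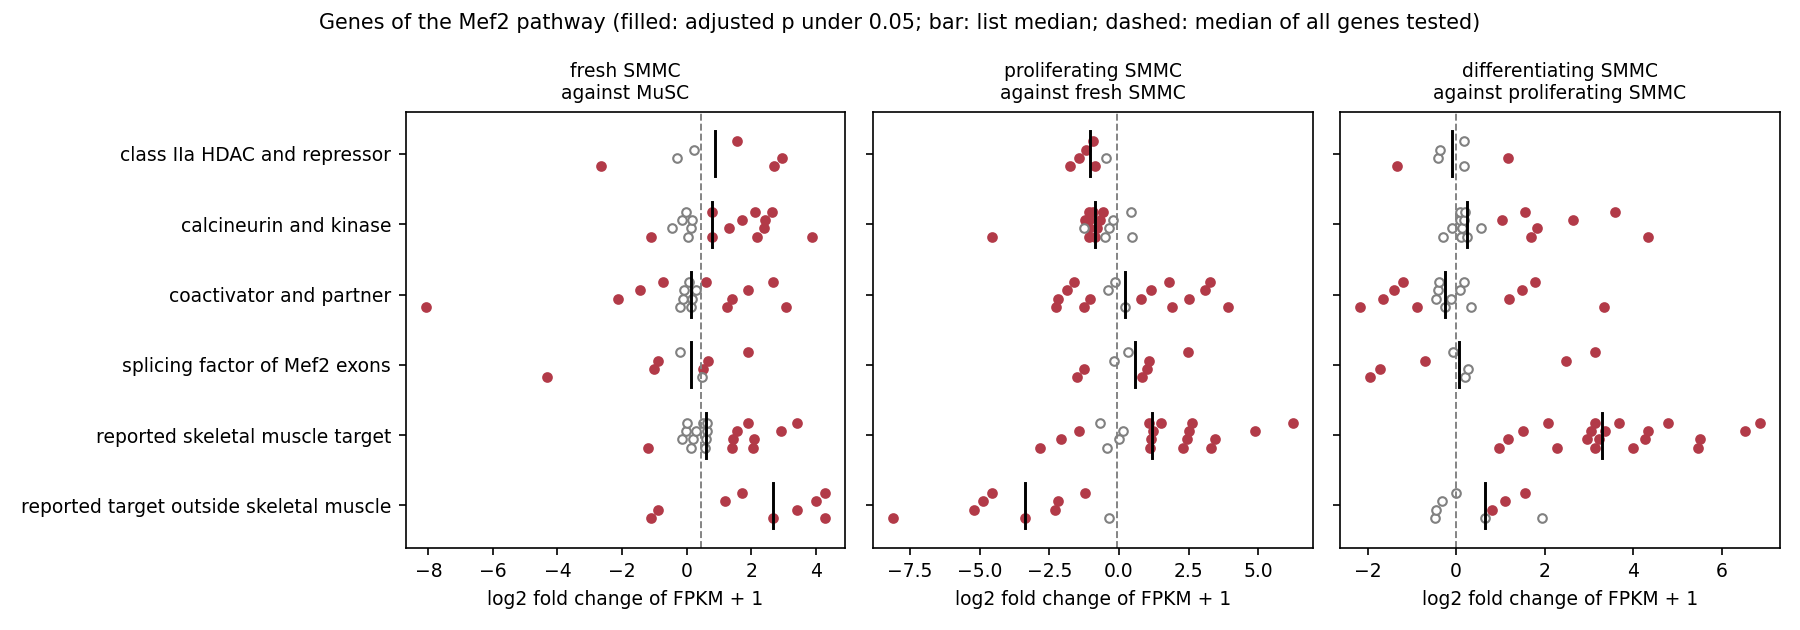
Log2 fold change of FPKM + 1 for each tested gene of the 6 Mef2 pathway lists in the 3 main comparisons; filled points have an adjusted p under 0.05, bars are list medians and dashed lines the median of all genes tested. The skeletal muscle targets stand at a median of 3.31 in differentiating against proliferating SMMC, and the targets from other tissues at -3.37 in proliferating against fresh SMMC.

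Promoter windows from 250 bases before to 50 after the annotated start, taken from RefSeq on GRCm38.p6, were searched for the MEF2-type letters CTANNNNTA, with each N an A or a T, on both strands. The motif was in 1184 of 32851 windows of all genes (3.6%) and in 8 of the 19 windows found for the skeletal muscle target list (42.1%), which belong to 7 of its genes because Tnni1 has 2 overlapping windows. In the other lists it was in 2 of 10 windows of targets outside skeletal muscle, 1 of 9 of the splicing list (11.1%), 1 of 11 of the HDAC and repressor list (9.09%), 1 of 13 of the partner list (7.69%) and 0 of 20 of the calcineurin and kinase list. The window of the splicing list is that of Srpk3, which is also counted in the skeletal muscle target list. Hdac9, Rcan1 and Myocd stand in more than 1 list too. Both target lists hold genes already reported as MEF2 targets, so their shares are not independent evidence of MEF2 sites. Among the 6 windows of the members themselves, 1 held the motif, that of Mef2a. The windows of Mef2b, Mef2c and Mef2d did not hold these letters. The Mef2a and Myog windows are printed whole because one is a member's own promoter and the other that of a partner whose promoter site is well studied in the mouse; Myog was chosen after its values were seen. Capitals mark the motif.
Mef2a, chr7:67372809-67373108, minus strand: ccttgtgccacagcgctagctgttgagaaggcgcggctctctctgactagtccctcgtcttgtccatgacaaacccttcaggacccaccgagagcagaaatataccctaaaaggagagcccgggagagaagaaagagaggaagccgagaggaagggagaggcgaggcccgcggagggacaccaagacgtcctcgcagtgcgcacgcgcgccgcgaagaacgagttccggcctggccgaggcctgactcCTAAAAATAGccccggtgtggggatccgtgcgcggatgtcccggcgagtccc
Myog, chr1:134289754-134290053, plus strand: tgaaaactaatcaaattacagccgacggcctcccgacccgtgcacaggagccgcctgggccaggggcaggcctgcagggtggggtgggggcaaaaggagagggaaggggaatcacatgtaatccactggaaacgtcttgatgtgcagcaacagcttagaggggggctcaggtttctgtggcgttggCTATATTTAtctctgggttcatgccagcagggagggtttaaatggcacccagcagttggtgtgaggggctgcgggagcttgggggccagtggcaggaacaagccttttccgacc
The motif began 2 bases before the start in the Mef2a window, where both strands match over 10 bases, and 64 bases before it in the Myog window. Myog averaged 398 ± 44.3 FPKM in differentiating SMMC and 155 ± 84.6 FPKM in proliferating SMMC, a log2 fold change of 1.5 (limma adjusted p = 0.0056).

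The 7 genes of the skeletal muscle target list with a motif are shown by the motif and 15 bases on each side, since these are the windows behind the share of 42.1%.
Hrc, chr7:45335154-45335192, plus strand: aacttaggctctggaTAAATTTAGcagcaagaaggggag
Myom1, chr17:71019421-71019459, plus strand: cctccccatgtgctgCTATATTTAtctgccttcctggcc
Pgam2, chr11:5803853-5803891, minus strand: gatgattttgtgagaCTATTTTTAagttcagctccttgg
Srpk3, chrX:73774323-73774361, plus strand: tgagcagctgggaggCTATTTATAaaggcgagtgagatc
Tnni1, chr1:135799361-135799399, plus strand: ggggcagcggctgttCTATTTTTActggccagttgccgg
Ttn, chr2:76982689-76982728, minus strand: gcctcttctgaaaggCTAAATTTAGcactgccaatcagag
Xirp2, chr2:67445913-67445952, plus strand: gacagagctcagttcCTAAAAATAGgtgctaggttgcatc
In differentiating against proliferating SMMC their log2 fold changes were 4.34 for Hrc, 3.24 for Myom1, 3.37 for Pgam2, 3.15 for Srpk3, 3.99 for Tnni1, 3.06 for Ttn and 2.95 for Xirp2, the last of which passed the filter in differentiating libraries only. Ckm did not hold these letters in its window. A match describes the letters of the window, not a site that was bound.

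In the single-cell libraries the members were described and not tested, because both libraries belong to 1 group and cells are not replicates. The libraries held 6144 cells with 19353328 UMIs (median 2516 per cell) and 6297 cells with 15507938 UMIs (median 2027), and they shared 53 cell barcodes. Levels are given as CPM, a gene's UMIs scaled to a fixed total of UMIs. The intervals are exact 95% intervals and cover counting error only. Over all cells Mef2c had 6423 UMIs in library 1 and 2253 in library 2, Mef2a 1564 and 1314, and Mef2d 858 and 695. Clustering without the Mef2 genes gave 35 clusters, of which 29 were named from listed markers into 11 classes; the names were rebuilt here and are not the authors' annotation.

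Mef2c was highest in B cell-like cells, with 1157 CPM (interval 1125 to 1191; 1777 cells) in library 1 and 695 (658 to 734; 1107 cells) in library 2. With called doublets left out, these cells held 75.5% of the 6300 Mef2c UMIs in library 1, where they were 29.2% of the cells. In library 2 they held 58.6% of the 2212 Mef2c UMIs and were 17.7% of the cells. Mef2c made up 92.6% of the Mef2 UMIs of B cell-like cells in library 1 and 88.3% in library 2. A Mef2c UMI was seen in 83.2% of B cell-like cells in library 1 (median depth 2185 UMIs) and 54.8% in library 2 (median 1551), and after thinning each cell to 1000 UMIs in 62.1% and 42.0%, with 7 and 13 shallower cells left out. The class named T and NK cell-like, led in most of its clusters by T cell genes, had the least: 1.90% of its cells in library 1 (median 3246 UMIs) and 0.36% in library 2 (median 2275) had a Mef2c UMI. This class does not cover a cluster led by Gzma, Ccl5, Xcl1 and Klrc1, genes of cytotoxic and NK cells, which met too few markers to be named. That cluster had 74.3 Mef2c CPM (6 UMIs in 24 cells) in library 1 and 172 (12 UMIs in 32 cells) in library 2, with a Mef2c UMI in 16.7% and 34.4% of its cells.

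Among the other classes with at least 100 cells in each library, vascular cells came next. Pericyte and smooth muscle-like cells had 358 Mef2c CPM (313 to 408; 226 cells) in library 1 and 207 (174 to 245; 316 cells) in library 2, and endothelial-like cells 270 (251 to 289; 1385 cells) in library 1 and 170 (156 to 185; 1737 cells) in library 2. The intervals of these 2 classes do not overlap in library 1 and overlap in library 2. Mef2a was at its highest in the same classes and in macrophage and dendritic-like cells. It had 246 CPM (209 to 288) in pericyte and smooth muscle-like cells, 203 (187 to 221) in endothelial-like cells and 146 (119 to 176) in macrophage and dendritic-like cells in library 1, and 124 (98.6 to 153), 184 (169 to 199) and 192 (150 to 243) in library 2. The order of these 3 classes for Mef2a thus differed between the libraries.

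The pericyte and smooth muscle-like class held 3 clusters. The cluster led by Kcnj8, Rgs5 and Vtn, pericyte genes, had 316 Mef2a CPM in library 1 and 161 in library 2. The cluster led by Acta2, Tagln and Myh11, smooth muscle genes, had 169 in library 1 and 75.2 in library 2, and the third, again led by Rgs5 and Kcnj8, had 239 and 171. The intervals of the first and the smooth muscle gene cluster do not overlap in either library for Mef2a. Those of the third overlap both the first and the smooth muscle gene cluster in each library. Mef2c was at 328 and 206 CPM in the first, 434 and 229 CPM in the smooth muscle gene cluster and 294 and 154 CPM in the third.

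Muscle stem cell-like cells had little Mef2c, 14.8 CPM (9.05 to 22.9; 383 cells) in library 1 and 6.62 (3.17 to 12.2; 571 cells) in library 2. A Mef2c UMI was in 2.87% of them in library 1 (median 3430 UMIs) and 1.75% in library 2 (median 2513). The CPM intervals overlap those of T and NK cell-like cells in both libraries, which does not show that the levels are equal. Background was not measured, so the level is not told apart from it. In library 1, 16 of the 20 Mef2c UMIs lay in 1 cluster of 47 cells, and at a higher clustering resolution the level of the class was 6.01. Mef2a was at 48.9 and 46.3 CPM and Mef2d at 39.3 and 46.3 in library 1 and 2 of this class. The 2 clusters of muscle stem cell-like cells were split by library, one with 336 cells in library 1 and 12 in library 2, the other with 47 in library 1 and 559 in library 2.

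The 26 skeletal muscle fibre-like cells had 12 Mef2c UMIs in each library, which is 335 CPM (173 to 585; 12 cells) in library 1 and 270 (140 to 472; 14 cells) in library 2. Mef2c was 80.0% and 85.7% of their Mef2 UMIs, with wide intervals of 51.9% to 95.7% and 57.2% to 98.2%. Tenocyte-like cells had 18.3 and 15.4 Mef2c CPM in library 1 and 2, and fibro-adipogenic progenitor-like cells 40.2 and 26.9. In both classes Mef2a led the family, with 70.4 and 77.5 CPM in tenocyte-like cells and 61.5 and 59.1 in fibro-adipogenic progenitor-like cells. Glial-like cells (30 and 74) had 140 and 110 Mef2c CPM, from 11 and 18 UMIs.

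Mef2d varied least among the classes with at least 100 cells in both libraries. It ran from 22.4 CPM in T and NK cell-like to 63.3 in B cell-like cells in library 1, and from 29.8 in T and NK cell-like to 62.7 in B cell-like cells in library 2. Over the same classes Mef2a ran from 28.7 in B cell-like to 246 in pericyte and smooth muscle-like cells in library 1, and from 25.4 in T and NK cell-like to 192 in macrophage and dendritic-like cells in library 2. Mef2c ran from 11.8 to 1157 in library 1 and from 1.47 to 695 in library 2, in each case from T and NK cell-like cells, without the unnamed cluster led by Gzma and Klrc1, to B cell-like cells. Neutrophil-like cells (37 and 21) held too few Mef2 UMIs, 22 and 2, to place them.

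**Figure D5:**
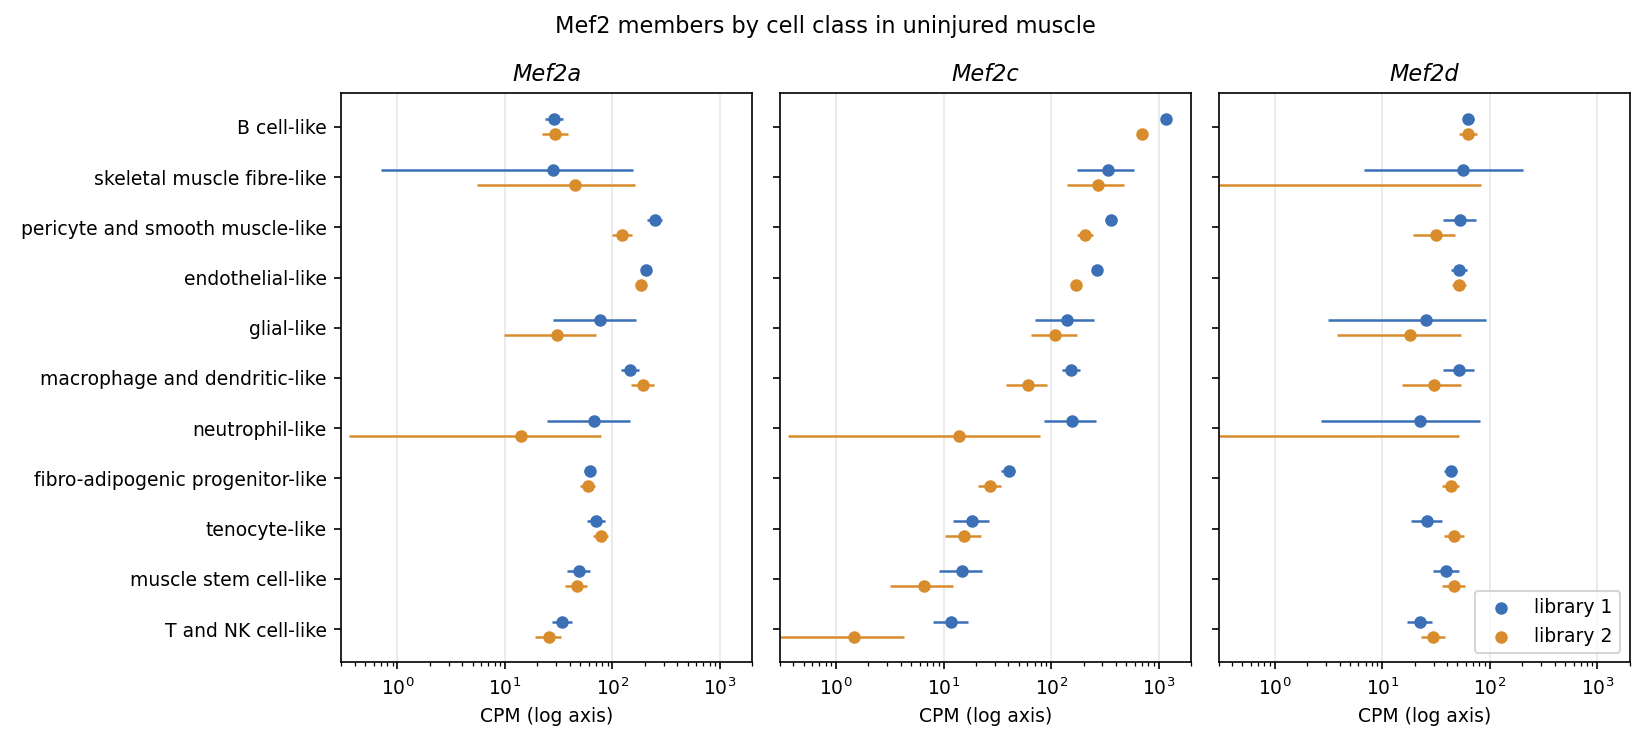
CPM of Mef2a, Mef2c and Mef2d by cell class on a log axis, with exact 95% Poisson intervals, 1 colour per single-cell library; classes are ordered by mean Mef2c level, and a level of 0 has an interval and no point. Mef2c is highest in B cell-like cells, at 1157 and 695, and lowest of the named classes in T and NK cell-like cells, at 11.8 and 1.47, a class that leaves out the unnamed cluster led by Gzma and Klrc1.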

How the data were processed

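The Mef2 members and all gene lists were chosen with earlier results of these data known. The submitters' processing notes name build mm10 and, in no stated role, R (3.5.1, 3.4.3, 3.3.1), Seurat (2.3.4, 2.2), StringTie, Cell Ranger (2.2.0, 2.1.0), SAMtools 1.3.1, HISAT2 2.1.0 and STAR 2.5.1b; annotation and strand setting: not given in the sources used here. Bulk values were deposited by the authors as FPKM per gene, per the file headers, and 4 further FPKM columns that match no sample here were not used. The authors deposited single-cell values as UMI counts per gene and cell; every cell held at least 499 genes. Depth is unknown for the bulk libraries.

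A gene entered the tests if 2 or more of the 11 libraries reached 1 FPKM (13233 of 24411 genes). The fit used limma 3.58.1 in R 4.3.3 on log2(FPKM + 1), all 4 groups together, an intensity trend, 7 residual degrees of freedom and two-sided tests. The script was tested on simulated data. Alternatives were other pseudocounts, filters, TMM (edgeR 4.0.16) and quantile scaling, removal of Rn45s, other fits, a replicate block and each library left out.

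All single cells were clustered with scikit-learn 1.9.0 and leidenalg 0.10.2 (2000 variable genes without Mef2 members, 30 components, 15 neighbours, Leiden resolution 1). Scrublet in scanpy 1.11.5 called 52 and 55 doublets (0.846% and 0.873%). These were left out after clustering, from the marker folds and the class levels. A cluster was named where its best class had a mean log2 fold of at least 1, at least 3 markers at least 2-fold up and at most 30% called doublets. Named were all members; of each list and comparison the counts, median and up to 4 called genes with the smallest adjusted p; and for each tested member the 5 genes of at least 10 FPKM in some group with the highest Pearson r.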

Additional observations from a re-analysis of the deposited data

How the results depend on the processing

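Mef2c kept its direction and its call in all 6 comparisons under every alternative run. With TMM 1 member, Mef2c, was called in fresh SMMC against MuSC, while Mef2a was at 0.81 and not called, and in proliferating SMMC against MuSC Mef2a was 0.29 and Mef2d -0.62, which TMM called; in differentiating SMMC against MuSC Mef2d was 0.45 and not called with TMM or quantile normalization (0.45 again). Quantile normalization gave -0.92 for Mef2d in fresh SMMC against MuSC, 0.48 for Mef2d in proliferating against fresh SMMC, where the sign reversed and 2 members were called, and 0.36 for Mef2a in proliferating SMMC against MuSC. Without Rn45s that last value was 0.81, and with no filter 0.93; neither was called. Mef2a in differentiating against proliferating SMMC stayed at 0.97 with no filter or with only the 2 groups compared, but lost its call. The cause of these changes was not tested.

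Leaving out 1 library at a time gave, for fresh SMMC against MuSC, 1 to 2 members called, Mef2a 1.19 to 1.49 and Mef2d -0.23 to 0.02 (0.0205 without MuSC replicate 1); for proliferating against fresh SMMC, Mef2a -0.65 to -0.17 and Mef2d -0.16 to 0.11; for differentiating against proliferating SMMC, Mef2a 0.66 to 1.33. For differentiating against fresh SMMC Mef2a ran from 0.24 to 0.92, with 0.92 called (limma adjusted p = 0.0216, without differentiating replicate 1). For proliferating SMMC against MuSC Mef2a ran from 0.69 to 1.17 and Mef2d from -0.28 to 0.0051. The labels do not say whether replicate numbers pair the samples, and the main fit did not pair them. With the replicate block, Mef2a in differentiating against fresh SMMC was 0.56 and called (limma adjusted p = 0.0443), and no other member's call changed. Leaving out list genes that reached the filter in 1 group only, chosen after seeing the data, moved no list count by over 1.5 times. Of the other 564 alternatives for list counts, 35 moved by over 1.5 times. Of 264 single-cell alternatives 63 moved beyond the counting interval, 58 of them by thinning. With doublets kept, Mef2c in library 1 was 23.8 CPM in muscle stem cell-like and 28.6 in T and NK cell-like cells. The bulk depth is unknown, and the single-cell counts limit glial-like, neutrophil-like and fibre-like cells.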

Other observations

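Clusters that met no class still held Mef2c. The 22 cells of a cluster whose leading genes include Siglech had 477 Mef2c CPM in library 1 (15 cells) and 352 in library 2 (7 cells), and a UMI was seen in 86.7% and 71.4% of them. A cluster led by Ccl21a, Nts and Lyve1, genes of lymphatic vessels, had 140 and 87.2 Mef2c CPM (41 and 59 cells). A cluster led by Sfrp5 had 38.1 and 10.9, from 3 and 1 UMIs in 25 and 40 cells. In B cell-like cells the cluster led by Vpreb3 and Top2a, an early B cell gene and a proliferation gene, had 164 and 143 Mef2c CPM (36 and 10 cells), beside 1417 and 720 in the main B cell-like cluster of 1042 and 929 cells.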
